A study of Mus musculus with 20 samples.

Results

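The lists of GPS2 peaks from untreated and from FCCP-treated 3T3-L1 cells were compared on chromosomes 1 to 19. All peaks of both deposited lists on these chromosomes were taken, with no further selection: 42486 untreated and 57169 FCCP peaks, 99655 of the 164307 peaks in the 4 lists analysed. The other 2 lists came from brown adipose tissue, 1 from wild-type males and 1 from wild-type females, and serve here as a reference. The series holds 20 mouse ChIP-seq samples, and each cell list was called by the authors on 1 pool of 2 libraries, without a control library.

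3T3-L1 is an established mouse preadipocyte line. The untreated group is that line with no FCCP and the other group is the same line with FCCP; neither is given a genetic change. The titles set the groups apart, whereas the treatment text of the labels names FCCP for both samples and their growth text describes mice rather than cells. Dose, duration, the differentiation state of the cells and the origin of the 2 pooled libraries are not given in the sources used here. With 1 list a side there is no replicate check, so every difference is a description without a p-value, and all intervals are 95% intervals that cover counting error only.

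GPS2 is a small protein that sits with HDAC3, TBL1 and TBLR1 in the corepressor complexes built on N-CoR or SMRT. In adipocytes it is known both from these nuclear complexes and from mitochondria, from which it can move to the nucleus when the organelle is depolarised. FCCP is a protonophore that carries protons across the inner mitochondrial membrane and so collapses the membrane potential, and the comparison asks how GPS2 occupancy of the genome differs after that collapse.

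The libraries held 74504840 tags (untreated) and 66979291 tags (FCCP), where a tag is 1 mapped read. Peak heights are normalized tags, the tags of a peak scaled to a library of 10000000. The median peak had 4.03 normalized tags in either list, which stood for 30 tags without FCCP and 27 tags with it. The tallest peak of both lists, on chromosome 2 at 98467867 (mm8), held 1604 and 1497 tags. Since no control was used, a peak is an excess of tags over its own surroundings.

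The shape of the peaks was nearly the same in both lists. HOMER's focus ratio is the share of tags that lie on the side of the peak centre on which a single point of binding would place them, so a value near 1 marks a sharp peak and lower values a broad or double one. The median was 0.725 without FCCP (0.722 to 0.725) and 0.725 with FCCP (0.725 to 0.727). The quartiles were 0.661 and 0.788 without FCCP and 0.667 and 0.789 with it. The mean was 0.725 ± 0.0902 (SD over peaks, n = 42486) and 0.728 ± 0.0911 (n = 57169). The difference of the medians was 0, and on single chromosomes it was never above 0.009: the FCCP median was the higher on 12 of 19, the lower on 4 and equal on 3. For reference, the medians of the tissue lists were 0.773 (male) and 0.750 (female).

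Taller peaks were broader in both lists. Without FCCP the median focus ratio was 0.730 among peaks of at most 3.5 normalized tags, 0.712 between 5 and 6 tags, 0.660 between 8 and 12 and 0.655 above 20. With FCCP the same classes gave 0.727, 0.717, 0.670 and 0.679. The lists thus followed the same course up to 20 normalized tags. Above that, only 113 untreated and 140 FCCP peaks remained.

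**Figure D1:**
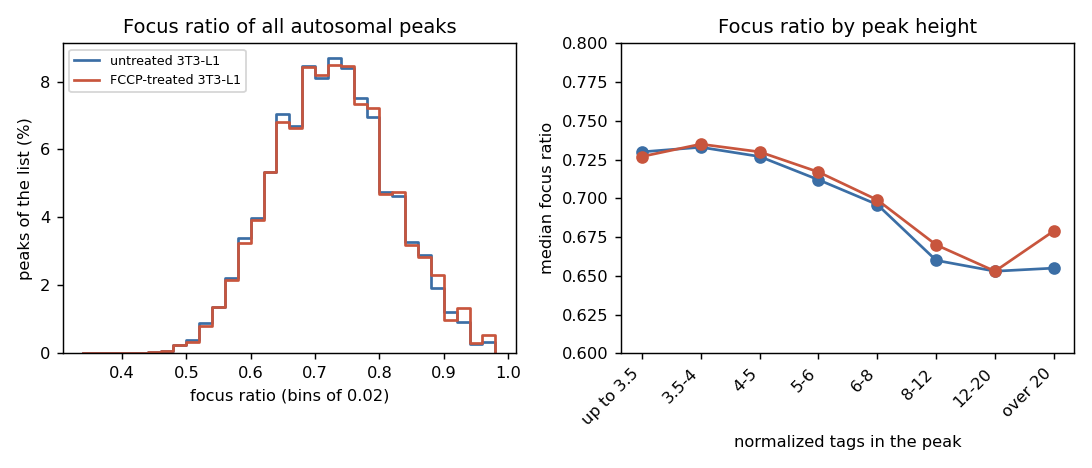
Left, the percentage of each list's autosomal peaks (y axis) by focus ratio in bins of 0.02 (x axis), for untreated (blue) and FCCP-treated (red) 3T3-L1 cells; right, the median focus ratio (y axis, from 0.6 to 0.8) by class of normalized tags (x axis). The distributions lie on one another with medians of 0.725, and in both lists the median falls from about 0.73 in low peaks to below 0.68 in tall ones.

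The broadest and the sharpest peaks above the median height show what these values stand for. The untreated peak of lowest focus ratio lay on chromosome 3 at 144484866 to 144485130, with 10.1 normalized tags and a ratio of 0.449, and its nearest FCCP peak was centred 304 bp away. The sharpest untreated peak, on chromosome 1 at 143659489 to 143659753, had a ratio of 0.981 at 6.44 normalized tags, with an FCCP peak centred 2 bp away. The sharpest FCCP peak, on chromosome 13 at 27788176 to 27788436, had a ratio of 0.981 at 7.46 normalized tags, and the nearest untreated peak was centred 3 bp away. The broadest FCCP peak of this height class, on chromosome 1 at 116385938 to 116386198, had a ratio of 0.433 at 4.33 normalized tags and no untreated peak within 85759 bp. Of the 12 peaks named by this criterion, 3 for each end of each list, the remaining 8 had ratios between 0.449 and 0.452 or between 0.977 and 0.980.

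The shape of a peak recurred from list to list. Peaks whose centres lay within 260 bp, the width of an FCCP peak, were counted as shared, which gave 17518 untreated peaks (41.2%), 17519 FCCP peaks (30.6%) and 17518 pairs of mutual nearest neighbours. Across these pairs the rank correlation of the focus ratios was 0.567. It was 0.498 for pairs of at most 4 normalized tags (geometric mean of the pair), 0.730 between 7 and 12, 0.854 between 12 and 20 and 0.890 for the 114 pairs above 20. The SD of the difference within a pair went from 0.0885 in the lowest class to 0.0425 in the highest. The points share the genome position and differ in depth, so the correlation is a description over pairs and has no p-value. The median centre offset was 42 bp over all pairs, 75 bp where the mean ratio was at most 0.55 and 16 bp where it was above 0.9.

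Among low peaks the sharp ones were shared less often than the broad ones, and among tall peaks more often. Of the untreated peaks under 4 normalized tags, 39.6% were shared at a focus ratio below 0.6 (Wilson interval 37.1 to 42.1) and 16.3% at 0.9 or more (13.9 to 18.96). In the FCCP list these shares were 25.1% (23.0 to 27.4) and 18.5% (16.2 to 21.0). The classes between them did not form an even course there: 19.2% of the low FCCP peaks were shared at 0.6 to 0.8 and 17.3% at 0.8 to 0.9, against 30.9% and 23.0% of the low untreated peaks. Between 7 and 12 normalized tags the order was the other way round. Of the untreated peaks of that height, 74.6% were shared below 0.6 (69.7 to 79.0) and 88.2% at 0.9 or more, the latter on only 17 peaks (65.7 to 96.7). Of the FCCP peaks, 68.9% were shared below 0.6 (64.2 to 73.2) and 88.9% at 0.9 or more (48 of 54 peaks, 77.8 to 94.8). The intervals of the low peaks do not overlap in either list, nor do those of the tall FCCP peaks, while those of the tall untreated peaks do.

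Sharp and tall peaks were more numerous in the FCCP list, which was also the longer. Over all heights, a focus ratio above 0.9 was found at 1166 of 42486 untreated and 1797 of 57169 FCCP peaks. With sharp set at a focus ratio of at least 0.9 and tall at 7 or more normalized tags, limits chosen after the values had been seen, 21 of 2008 tall untreated peaks (1.05%, 0.685 to 1.59) and 64 of 2997 tall FCCP peaks (2.14%, 1.68 to 2.72) were sharp. The limit of 7 stood for 52 tags without FCCP and 47 with it, and whether this depth enters the counts was not tested. Of these, 19 (90.5%, 71.1 to 97.3) and 58 (90.6%, 81.0 to 95.6) were shared. Over all tall peaks the shared part was 80.7% and 71.3%, so that only the FCCP interval lies above it. Among the broad and tall peaks, those with a ratio below 0.6, it was near that of all tall peaks, with 339 of 433 (78.3%) and 391 of 538 (72.7%). Sharp and tall peaks also met female brown fat peaks more often than tall peaks as a whole did. A female brown fat peak was centred within 260 bp of 4 of the 21 sharp untreated peaks (19.05%, 7.67 to 40.0) and of 16 of the 64 sharp FCCP peaks (25%, 16.0 to 36.8). Over all tall peaks this was 5.83% (4.88 to 6.94) and 4.07% (3.42 to 4.84), and for broad and tall peaks 3.00% (1.76 to 5.07) and 2.42% (1.42 to 4.09). At male brown fat peaks lay 1 sharp and tall peak of either list, 9.70% (7.26 to 12.9) and 11.7% (9.26 to 14.7) of the broad and tall ones, and 10.2% and 6.84% of all tall peaks. The untreated broad share was thus close to that of all tall peaks, and the FCCP broad share above it. The male and female lists were called against different knockout libraries, and whether that enters these shares was not tested.

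At shared peaks, tag counts after FCCP were slightly above those without it, and more so at the sharp and tall ones. Over all 17518 pairs the median log2 ratio of normalized tags, FCCP over untreated, was 0.07 (0.07 to 0.08). It was 0.04 in the 5326 pairs of at most 4 normalized tags and 0.09 in the 114 above 20. A pair had to pass the tag thresholds of both lists, 26 tags without FCCP and 24 with it. Whether these thresholds, scaled to the libraries, enter the ratios was not tested. FCCP was at least 1.25-fold higher at 15.9% of pairs and at least 1.25-fold lower at 6.23%; these percentages are the background for the classes of pairs. In 31 pairs the mean focus ratio was at least 0.9 and the geometric mean height at least 7. Their median log2 ratio was 0.27 (0.07 to 0.39). FCCP was higher at 25 of them (80.6%), against 60.6% of all pairs and 65.1% of tall pairs. This share was 85.1% for the 114 pairs of any shape above 20 normalized tags. At 13 of the 31 (41.9%) FCCP was at least 1.25-fold higher, and at 1 at least 1.25-fold lower. In the 349 broad and tall pairs the median was 0.07 (0.04 to 0.11), with 46 pairs at least 1.25-fold higher (13.2%). In the 1339 tall pairs of intermediate shape it was 0.09. In the 223 sharp pairs under 7 normalized tags it was 0.04 (-0.01 to 0.07). The intervals of the sharp and the broad medians overlap slightly. Those of the summed tag ratios, 1.20 (1.13 to 1.28) and 1.06 (1.04 to 1.07), do not, but they treat single tags as independent. The limits were also chosen after the values had been seen, so this separation is not a test of the difference.

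**Figure D2:**
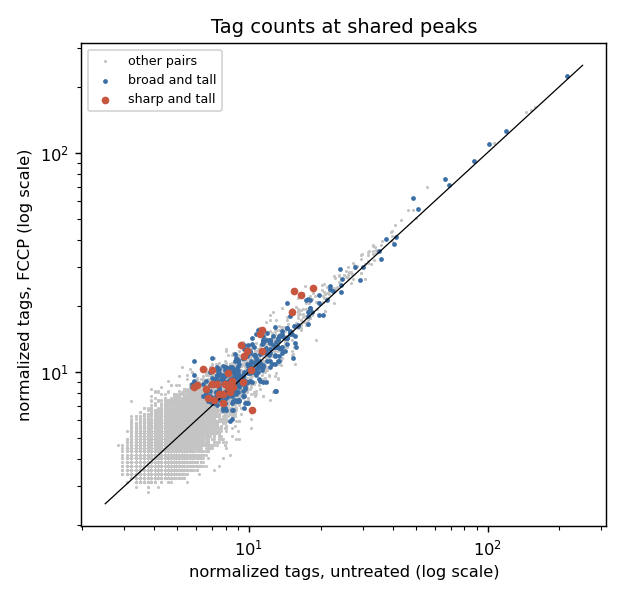
Normalized tags with FCCP (y axis, log scale) against normalized tags without FCCP (x axis, log scale) at the 17518 shared pairs, with broad and tall pairs in blue, sharp and tall pairs in red, all others in grey and the line of equal counts in black. Of the 31 red points 25 (80.6%) lie above the line, against 60.6% of all pairs.

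The tallest of the sharp pairs lay on chromosome 6 at 132429319 to 132429579, with 24.2 normalized tags after FCCP and 18.5 without (1.31-fold, exact interval 1.03 to 1.65). On chromosome 1 at 12629892 to 12630152 the values were 23.4 and 15.4 (1.52-fold, 1.19 to 1.95). On chromosome 2 at 60203508 to 60203768 they were 22.5 and 16.6 (1.35-fold, 1.06 to 1.73). These 3 are the highest red points in the plot of tag counts, and their FCCP peak rose above its surroundings 32.9-fold, 22.5-fold and 17.2-fold. On chromosome 9 at 19325742 to 19326002 the values were 18.8 and 15.2 (1.24-fold, 0.954 to 1.61), an interval that includes 1. The pair on chromosome 4 at 93336341 to 93336601 had 14.9 normalized tags after FCCP and 11.1 without (1.34-fold, 0.992 to 1.82). Its FCCP peak was 107-fold over the local region, the highest excess in the FCCP list, its untreated peak 71.2-fold, and a female brown fat peak lay there as well. The one clear exception was on chromosome 7 at 40858994 to 40859254, with 6.72 normalized tags after FCCP and 10.3 without (0.650-fold, 0.440 to 0.951).

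Over the 31 sharp pairs the interval of the single ratio lay above 1 at 6 and below 1 at 1. The summed tag ratio of all pairs was itself 1.06 (1.05 to 1.06). The lower limits of those 6 ran from 1.02 to 1.19, so not all of them lay above that ratio. No such count over all pairs or all tall pairs is given here, so the 6 and the 1 cannot be read as particular to sharp pairs. The pairs were spread over 13 chromosomes, their median centre offset was 4 bp and the largest 45 bp. The median fold over the local region was 15.6 after FCCP and 11.6 without. None of the 31 met a male brown fat peak and 11 met a female one. Without those 11 the median log2 ratio was 0.31 (0 to 0.46), on 20 pairs.

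The clonal column gave no difference between the lists, and in these files it holds little beyond the tag count. Clonal Fold Change is the number of distinct tag positions that HOMER expects for the tags of a peak, divided by the number it observes, and high values mark peaks made of repeated copies of the same tag. The median was 0.95 in both lists, with ranges of 0.16 to 0.96 (untreated) and 0.17 to 0.97 (FCCP). The number of distinct positions expected when tags fall evenly over a peak's width, divided by the number of tags, gave the deposited value to within 0.0051 for 42468 of 42486 untreated peaks (99.96%) and 56176 of 57169 FCCP peaks (98.3%). In the tissue lists the same expression matched 5.49% (male) and 3.77% (female) of the peaks. At 30 tags the median was 0.95 in both cell lists, and at 60 tags 0.90 and 0.89. The tallest peak, on chromosome 2, accordingly had the lowest value in each list, 0.16 and 0.17.

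**Figure D3:**
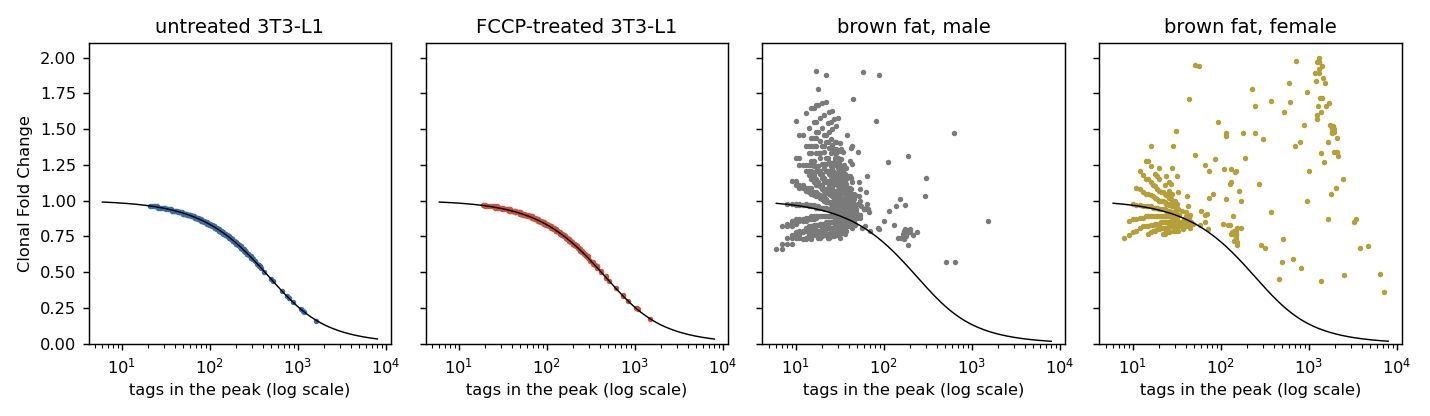
Clonal Fold Change (y axis) against the tags in a peak (x axis, log scale) for each of the 4 lists, with the distinct positions expected from the peak width divided by the tags as a black line. Points of both 3T3-L1 lists lie on the line, whereas those of the tissue lists scatter around it up to 1.91 (male) and 2.00 (female).

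No peak of either cell list had a value above 1, against 27.0% of the male and 4.36% of the female brown fat peaks. The expression that gave nearly all cell values cannot exceed 1, so this contrast does not measure how clonal the cell libraries were. The headers give 0 peaks removed as too clonal in both cell lists, 9 in the male and 86 in the female list. How the pooled tags were collapsed before peak calling is not given in the sources used here.

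The findPeaks score followed the tag count in both lists alike. The score is HOMER's own tag score for a peak and is not scaled to the library. Its median was 31 without FCCP and 28 with it, and its lowest values were 26 and 24, the tag thresholds that the headers give for a false discovery rate of 0.001. The rank correlation with normalized tags was 0.975 in each list. Per normalized tag the score was 7.69 without FCCP and 6.94 with it, a log2 ratio of -0.15, and the ratio of the library sizes was -0.15 on the same scale. Per unscaled tag the medians were 1.03 and 1.04.

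Score and final tag count differed by at most 2 tags at most peaks, and by up to 27 (untreated) and 31 (FCCP). They were equal at 30.9% of untreated and 32.1% of FCCP peaks, the score was higher by 1 or 2 at 60.6% in both, and it was lower than the tag count at none of the peaks. The tissue lists differ in this: there the score was lower at 82.5% (male) and 47.6% (female) of the peaks. In both lists some final counts lay under the tag threshold, at 5105 untreated peaks (12.02%) and 6533 FCCP peaks (11.4%). The score exceeded the tags most, relative to height, at the untreated peaks on chromosome 6 at 67689974 and chromosome 12 at 82469164, each with a score of 29 and 23 tags, and at the FCCP peak on chromosome 2 at 13282372, with a score of 27 and 21 tags. Among peaks of at least 20 normalized tags, score per tag was 1.01 in either list, against 0.653 (male) and 0.147 (female) in the tissue lists, whose calling allowed 1 tag per base pair in place of 3.

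FCCP peaks lay closer together. The median distance between the centres of neighbouring peaks was 24398 bp without FCCP (24020 to 24758) and 19679 bp with it (19405 to 19930), and it was shorter with FCCP on 19 of 19 chromosomes. The ratio of the medians was 1.24. That of the means, 1.35, is also the ratio of the list lengths and follows from it, since both lists span nearly the same stretches. The FCCP list was the longer on each chromosome, by 1.29- to 1.50-fold, so the 19 of 19 is not separate from the number of peaks. When the FCCP list was cut to its 42486 top-scoring peaks, the order turned: 26569 bp with FCCP against 24398 bp without. This cut took low-scoring peaks from the FCCP list only and left the untreated list whole. Number and score of the peaks thus changed together, and which of them enters the spacing was not tested.

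Close neighbours were few in both lists. Of the gaps, 2.19% without FCCP and 2.86% with it were at most 1000 bp, and 11.3% and 13.1% at most 5000 bp. The longest series of peaks whose neighbours were at most 2000 bp apart held 4 peaks in either list. The untreated list had 1 such series, on chromosome 1 at 148882783 to 148887131, with heights of 3.49 to 6.17 normalized tags and 1 of its 4 peaks shared. The FCCP list had 11, the first on chromosome 1 at 143132342 to 143137039, with 4.48 to 5.08 normalized tags and 2 of 4 peaks shared. Peaks with a neighbour of their own list within 1000 bp were shared more often than those whose nearest neighbour was 20000 to 50000 bp away: 52.4% (50.1 to 54.7) against 38.6% (37.6 to 39.6) without FCCP and 39.1% (37.4 to 40.9) against 27.1% (26.3 to 27.9) with it. The share was higher again, 43.5% (42.2 to 44.8) and 29.98% (28.7 to 31.3), where the nearest neighbour was over 50000 bp away.

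A step in the spacing at 5 kb was shared by both lists. The bin of 4.5 to 5 kb held 1.04% of the untreated gaps and the bin of 5 to 5.5 kb 2.05%. For FCCP these were 1.28% and 2.49%. Counting all pairs of peaks rather than neighbours, the number at 5 to 6 kb was 1.96 times that at 4 to 5 kb without FCCP (1909 against 976, exact interval 1.81 to 2.11) and 2.15 times with it (3101 against 1445, 2.02 to 2.29). Pairs of 1 untreated and 1 FCCP peak gave 4636 against 2581, a ratio of 1.80 (1.71 to 1.89). Shared peaks were not left out of these, so they partly count the same positions again. Pairs with a male brown fat peak gave 1.35 (1.22 to 1.50) for untreated and 1.27 (1.17 to 1.39) for FCCP peaks. The tissue lists had smaller ratios, 1.30 (1.20 to 1.42) in male and 1.25 (1.04 to 1.50) in female brown fat.

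**Figure D4:**
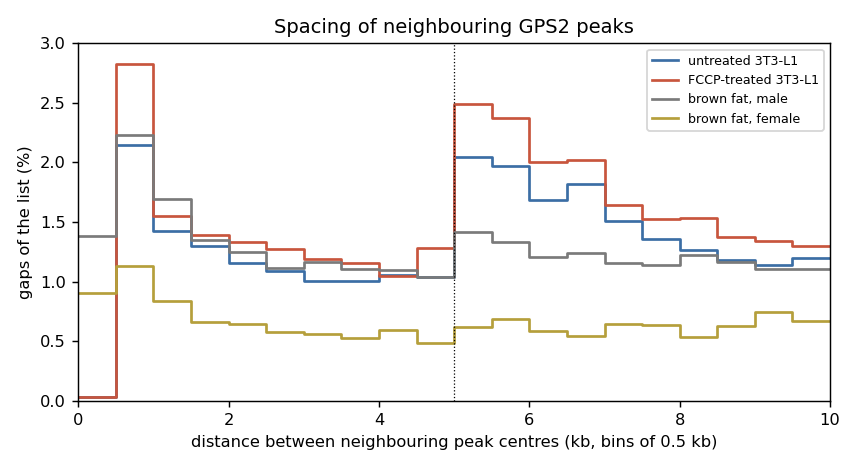
Percentage of gaps (y axis) by the distance between neighbouring peak centres (x axis, kb, bins of 0.5 kb) in the untreated (blue), FCCP (red), male (grey) and female (ochre) lists, with a dotted line at 5 kb. Both 3T3-L1 lines step up at 5 kb, from 1.04% to 2.05% and from 1.28% to 2.49%, and the tissue lines less so.

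The step lies at the outer limit of the local filter. HOMER compared each peak with the surrounding 10000 bp, that is 5000 bp to either side, and required a 4-fold excess in the cell lists and a 2-fold excess in the tissue lists. That filter removed 229680 of 274316 candidate peaks without FCCP and 226519 of 287000 with it. Whether the filter sets the step was not tested. A rule on the minimum distance, 528 bp and 522 bp in the headers, was not strict, since the closest centres were 370 and 374 bp apart.

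Some peaks stood alone over long distances. The most isolated untreated peak, on chromosome 7 at 145130753 to 145131017 (4.16 normalized tags), was 2101663 bp from the next peak of its list, but 13154 bp from an FCCP peak, itself the second most isolated of the FCCP list. The untreated peak on chromosome 2 at 167568166 to 167568430, 1492962 bp from its own neighbours, had 17.7 normalized tags and an FCCP peak centred 4 bp away. The FCCP peak farthest from its own list was on chromosome 1 at 92692596 to 92692856, with 7.02 normalized tags.

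Distances to the other list fell into a near and a far class. From an untreated peak the nearest FCCP peak was at a median of 1758 bp (1632 to 1890), with quartiles of 58 and 11136 bp. From an FCCP peak the nearest untreated peak was at 5988 bp (5867 to 6123), with quartiles of 106 and 20801 bp. Within 50 bp lay 22.9% of untreated and 17.0% of FCCP peaks, within 200 bp 39.7% and 29.5%. Between 261 and 1000 bp only a further 2467 untreated peaks (5.81%) and 2836 FCCP peaks (4.96%) found a partner. The distance from untreated to FCCP peaks was the shorter one on 19 of 19 chromosomes, on each of which the FCCP list was also the longer. With the FCCP list cut to as many top-scoring peaks as the untreated list has, the median was 4693 bp from untreated to FCCP peaks. From FCCP to untreated peaks it was then 4695.5 bp.

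**Figure D5:**
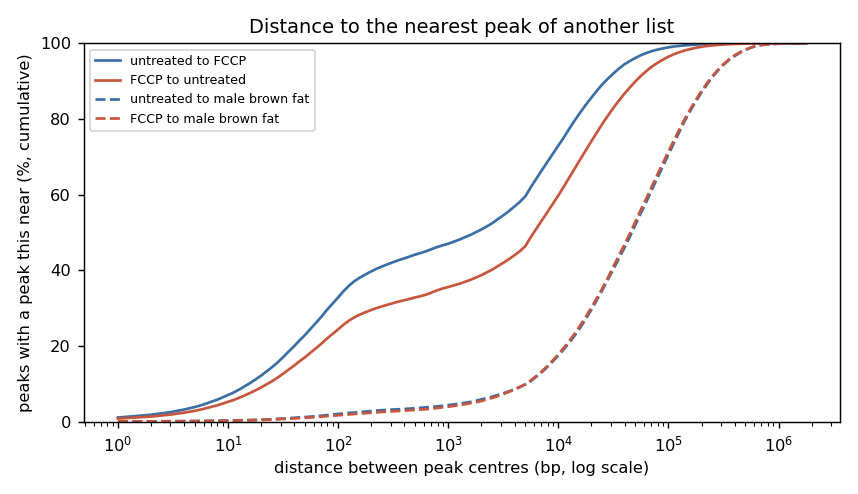
Cumulative percentage of peaks (y axis) whose nearest peak of another list is centred within a given distance (x axis, bp, log scale), from untreated to FCCP (blue) and FCCP to untreated peaks (red), and from both to male brown fat peaks (dashed). The solid curves climb to 39.7% and 29.5% by 200 bp, flatten, and bend upwards again at 5000 bp.

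The distances to the tissue peaks were much longer for both cell lists, with medians slightly shorter from FCCP than from untreated peaks. The nearest male brown fat peak was at a median of 46502 bp (45655 to 47279) from untreated and 45090 bp (44427 to 45737) from FCCP peaks. These intervals overlap slightly. The near shares had the other order, with 2.05% of untreated and 1.69% of FCCP peaks within 100 bp. For female brown fat the medians were 83115 bp (81763 to 84575) and 80275 bp (79199 to 81457). The female list is shorter than the male one, with 18722 peaks against 39649. Beyond 100 kb from the other cell list lay 443 untreated peaks (1.04%) and 2017 FCCP peaks (3.53%).

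Among the peaks farthest from the other list were some of good height. The untreated peak on chromosome 11 at 69731825 to 69732089 had 17.2 normalized tags with no FCCP peak within 852605 bp, and no second untreated peak within 852654 bp. The record untreated distance was on chromosome 5 at 121283913 to 121284177, 1297220 bp from any FCCP peak at 5.91 normalized tags. The record FCCP distance was on chromosome 15 at 84254635 to 84254895, 1536820 bp from any untreated peak at 6.57 normalized tags. All 3 stood 4.10- to 4.54-fold over the local region, just above the required 4-fold.

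Chromosomes 4, 12, 14 and 18, singled out after the values had been seen, differed from the other 15 in several of these measures at once. In the untreated list 51.3%, 51.7%, 53.1% and 49.6% of their peaks were shared, against 37.1% to 44.9% elsewhere. Median spacing there was 50202, 60117, 53883 and 53594 bp, against 15030 to 33719 bp elsewhere. The nearest FCCP peak was at a median of 184, 189.5, 166 and 332 bp, against 748 bp or more. This largely restates the shared part, since shared peaks lie within 260 bp. Median focus ratios were 0.7025 to 0.704, against 0.717 to 0.737. Untreated peaks on these chromosomes were thus farther apart, broader and more often shared. In the FCCP list they also had the longest median spacing, from 34972 to 40668 bp, and the lowest focus ratios, from 0.700 to 0.711, while their shared part of 34.5% to 35.6% was close to the 34.9% of chromosome 5. From their FCCP peaks the nearest untreated peak was not close, at medians of 6714, 9512.5, 6176 and 9065 bp. Elsewhere these medians were 3634 to 8719.5 bp. What sets these chromosomes apart was not tested.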

How the data were processed

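GPS2 ChIP-seq peak lists of 2 cell samples and, for reference, 2 brown fat samples were used. The submitters' processing notes name the mm8 build, Bowtie2 and HOMER, without versions. Per the file headers, cell peaks were called on pooled tags with at most 3 tags per base pair, a false discovery rate of 0.001 and a 4-fold excess over 10000 bp.

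As deposited, normalized tag counts are a signal, scaled to 10000000 tags. The deposited focus ratio is a fraction, the deposited findPeaks score is an unscaled score, and fold over the local region and Clonal Fold Change are deposited ratios. The deposited p-value columns were not used. Tags were recovered as normalized tags times library size.

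Distances run between centres. Medians carry order-statistic, shares Wilson and tag ratios exact binomial intervals. Ordered rules named 3 peaks per list and criterion: height, lowest and highest focus ratio (peaks above the median height), clonal value, score per tag, and distance to either list, plus the longest series within 2000 bp. For the highest clonal values only ranges are given, since many peaks tie. Distance and spacing steps were checked against a direct search in subsets of the lists. The share of near peaks and the focus difference were checked on simulated lists with planted values. The pairing of mutual nearest neighbours was not checked in this way. Members and measures were chosen with earlier results of these data known. No genome of this build was used, so no genes or sequences are given. Computation used SciPy 1.17.1, pandas 2.3.3 and numpy 2.4.6 under Python 3.11.15, and plots matplotlib 3.10.9.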

Additional observations from a re-analysis of the deposited data

Results flagged for a closer look

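Outside the chromosomes compared, both lists held peaks on unplaced sequence: 131 without FCCP and 168 with FCCP. They were flagged for lying above the 3 that a count of 0 would allow. That limit is not an expected number of peaks for such sequence, so the flag shows no excess. These peaks have no control list to be set against. Their median heights were 4.03 and 4.33 normalized tags and their tallest peaks had 14.4 and 21.1. Of them, 53 and 75 lay on sequence assigned to chromosome Y without a place, beside 26 and 40 peaks on the assembled chromosome Y.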

How the results depend on the processing

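Each of the 5 list measures was computed under 6 other settings. Cutting the FCCP list to as many top-scoring peaks as the untreated list has turned the log2 ratio of median spacings from -0.31 to 0.12 and took that of the distances to the other list from 1.77 to 0.00077. The score per normalized tag went from -0.149 to -0.153 and the difference of focus medians from 0 to -0.003. Keeping only peaks at least 8-fold over the local region gave 0.005 for focus, -0.151 for score, -0.66 for spacing and 2.31 for distance. Distances between peak edges gave 1.94. The clonal difference was 0 under all 6.

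The remaining settings were chosen after seeing the data. Score per unscaled tag turned the log2 ratio to 0.0047. The median log2 ratio at sharp and tall pairs ran from 0.18 (focus ratio at least 0.85) to 0.39 (at least 10 normalized tags), above 0 in all 6. These 6 settings share pairs and are not separate checks. Centres within 100 bp kept the same 31 pairs, and without female brown fat peaks the interval reached 0 (0 to 0.46). Neighbour gaps at 5 to 6 kb were 2.08 times (FCCP) and 1.92 times (untreated) those at 4 to 5 kb, and 10.8 and 5.29 times among peaks at least 8-fold over the local region, on 6 and 7 gaps at 4 to 5 kb; by construction, a neighbour within 5 kb adds to the surroundings and lowers the fold, so this setting favours a larger ratio.

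No paired analysis was possible because each condition has 1 pooled list. At 27 to 30 tags in a median peak, an unshared peak is not shown to be absent from the other condition, since peaks under the threshold are not listed. Both lists were called without a control, and intervals treat peaks, or tags in the tag ratios, as independent.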
